A study of Homo sapiens with 4 samples.

Results

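The genes described here are 10 targets of the unfolded protein response of the endoplasmic reticulum (ER), namely *HSPA5*, *CALR*, *DNAJB9*, *DNAJC3*, *SDF2L1*, *PDIA4*, *CRELD2*, *EDEM1*, *HERPUD1* and *XBP1*. They were chosen by symbol, as ER chaperones and as targets of the XBP1 and ATF6 branches of that response. The arrays hold 11 probes for these 10 genes, among 33096 probes that carry 20481 gene symbols. *DNAJC3* has a pair of probes, and each of the other genes has 1. The comparison asks whether these genes moved after knockdown of *SOX2*, and how they moved beside genes of the amino acid response.

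Total RNA came from LN229 cells, an established human glioma line grown in DMEM. One group was transfected with siRNA against *SOX2*, an HMG-box transcription factor, and the other, called mock knockdown, with a non-targeting control siRNA. Each group had 2 arrays, described in the methods of the study as biological replicates that included the transfection. The samples are bulk RNA of transiently transfected cells, in which fewer cells of a type and less RNA per cell cannot be told apart.

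The ER senses unfolded proteins through 3 membrane proteins, each of which starts a branch of the response. ERN1 (IRE1) splices the *XBP1* transcript into the form that encodes an active transcription factor, and ATF6 is cut in the Golgi to release another. These factors raise ER chaperones and the machinery of ER-associated degradation, which moves misfolded proteins to the proteasome. EIF2AK3 (PERK) slows translation and favours that of *ATF4*, and *ATF4* is also induced when amino acids run short, through a different kinase. A target of ATF4 can therefore move without the ER branches, whereas the chaperones such as *HSPA5* (BiP) are the usual readout of XBP1 and ATF6.

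The promoters of the 10 genes were searched for sequence elements that XBP1 and ATF6 are known to recognise, and some of the genes held an exact match. The windows were the 250 bases before the annotated start in RefSeq (GRCh38.p14), searched on both strands. All 10 genes matched an entry, with 12 windows in all, since *XBP1* and *PDIA4* have more than 1. The spaced ER stress element, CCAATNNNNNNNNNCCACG, was present in 4 of the 10 genes (*HSPA5*, *CALR*, *CRELD2* and *XBP1*). By windows, it was in 33.3% of the 12 and in 0.074% of all 35116. The following stretches are shown, each 5′ to 3′ on the strand of the gene with the element in capitals, because they show the same element in *XBP1* and in 3 chaperone or folding genes. In *CALR* and *CRELD2* the element lies on the opposite strand, so its reverse complement is in capitals.
HSPA5, chr9:125241371-125241429, minus strand: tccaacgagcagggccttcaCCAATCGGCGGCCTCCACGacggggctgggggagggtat
XBP1, chr22:28800583-28800641, minus strand: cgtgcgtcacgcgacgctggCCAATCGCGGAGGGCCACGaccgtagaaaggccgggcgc
CALR, chr19:12938364-12938422, plus strand: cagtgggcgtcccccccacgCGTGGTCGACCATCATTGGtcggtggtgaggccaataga
CRELD2, chr22:49918534-49918592, plus strand: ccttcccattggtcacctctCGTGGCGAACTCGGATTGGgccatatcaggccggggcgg

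A second form, ER stress element II (ATTGGNCCACG), was present in *HERPUD1* and *SDF2L1*, which is 16.7% of the 12 windows, and in 0.0513% of all windows. The *HERPUD1* window also held the core of the C/EBP-ATF element (TGATGNAA, here as its reverse complement), through which ATF4 and its partners act. That core was found in 1 of the 10 genes, which is 8.33% of the 12 windows, and in 3.14% of all windows. Of the 41 genes of the amino acid response list described further on with a window, 11 held it, in 16.4% of their 67 windows, and so did 0 of the 85 windows of 64 other ER response genes. These stretches are shown because *HERPUD1* alone among the 10 carries both kinds of element.
HERPUD1, chr16:56931946-56932055, plus strand: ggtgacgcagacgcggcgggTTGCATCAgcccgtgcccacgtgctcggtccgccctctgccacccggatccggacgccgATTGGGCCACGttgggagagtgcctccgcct
SDF2L1, chr22:21642094-21642144, plus strand: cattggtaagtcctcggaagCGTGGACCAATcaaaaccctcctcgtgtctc

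The core of the UPR element (TGACGTGG), which overlaps the CCACG box of the other elements on its reverse strand, was in none of the 12 windows and in 0.612% of all windows. *DNAJB9*, *DNAJC3*, *EDEM1* and *PDIA4* thus held no exact match to any of the elements searched. A CCACG box with CCAAT anywhere in the window, a much looser match, was found in all 10 genes. By windows, it was in 83.3% of the 12 and in 9.96% of all windows. A match is a description of the letters in this window only, and binding was not measured here. Since the genes were chosen as targets of XBP1 and ATF6, more matches than over all windows are no separate evidence about them.

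**Figure D1:**
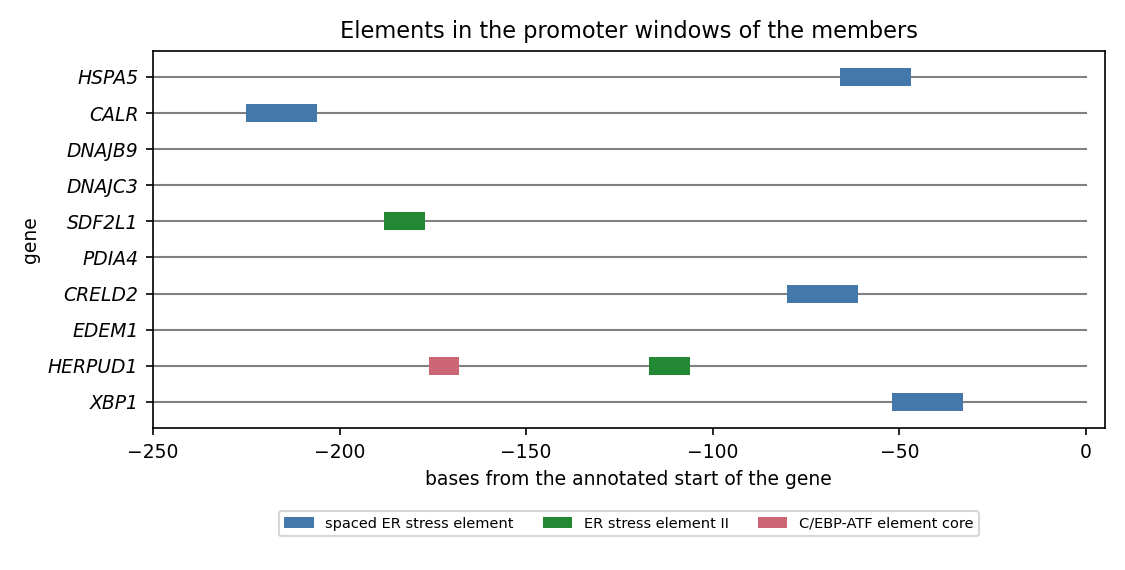
Position of the elements in the promoter windows of the 10 genes, in bases from the annotated start of each gene (x axis); each line is a window of 250 bases and each block is an exact match. The spaced ER stress element lies nearest the start in *XBP1* and *HSPA5*, and *HERPUD1* is the gene with both an ER stress element II and a C/EBP-ATF element core.

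Signals are given per array as multiples of the 75th percentile of that array, in the order mock replicate 1, mock replicate 2, *SOX2* knockdown replicate 1 and *SOX2* knockdown replicate 2. The *SOX2* probe read 0.467 and 0.701 in mock knockdown and 0.209 and 0.149 after *SOX2* knockdown, so the groups did not overlap. Its log2 change was -1.69 (SE 0.28, n = 2 and 2), and limma gave an adjusted p of 0.117 (Benjamini-Hochberg over all probes). The signal-to-noise ratio (S/N, the deposited signal over its error) was over 3 for 63.8% to 69.4% of the gene probes per array, and 21256 probes passed a filter on it. The S/N of the *SOX2* probe was 5.17 and 13.56 in mock knockdown. After *SOX2* knockdown it was 3.17 and 3.06, close to that limit, so the size of its change rests on dim signals. In the labels, the description of the treatment speaks of SW620, a colon line, whereas the sample titles, among other fields, name LN229. Markers of glial and mesenchymal cells were above an S/N of 3 on all 4 arrays for 7 of 8 genes (all but *FN1*), with a summed signal of 212 to 290. Of 10 colon epithelial markers, 1 (*VIL1*, 1 of its 2 probes) was so, with a summed signal of 0.292 to 0.438. *CDH17*, *KRT20* and *CDH1* were not above that limit on any array.

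*XBP1* and *HERPUD1* had higher signals after *SOX2* knockdown, 2.24-fold and 1.71-fold by the replicate means, while the other members, the chaperones among them, were between 0.718-fold and 1.26-fold. No member passed an adjusted p of 0.05 in limma, and neither did any of the 21256 probes tested (0.0%). At an unadjusted p under 0.05, 2 of the 10 members kept were higher (*XBP1* and *HERPUD1*; 7.9% of all probes) and 2 were lower (*SDF2L1* and *EDEM1*; 9.16% of all probes). The groups did not overlap in 8 members. Of these 4 were higher after knockdown (*HSPA5*, *DNAJC3*, *HERPUD1* and *XBP1*; 21.2% of all probes) and 4 lower (*CALR*, *SDF2L1*, *CRELD2* and *EDEM1*; 25.8% of all probes). *XBP1* was the only member past 2-fold, as were 1.57% of all probes in that direction, and no member was past 2-fold lower (1.04% of all probes). The log2 change was above 0 for 5 of the 10 members (49.8% of all probes). Their median was 0.04 (quartiles -0.36 and 0.30), and that of all probes kept was -0.00.

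**Figure D2:**
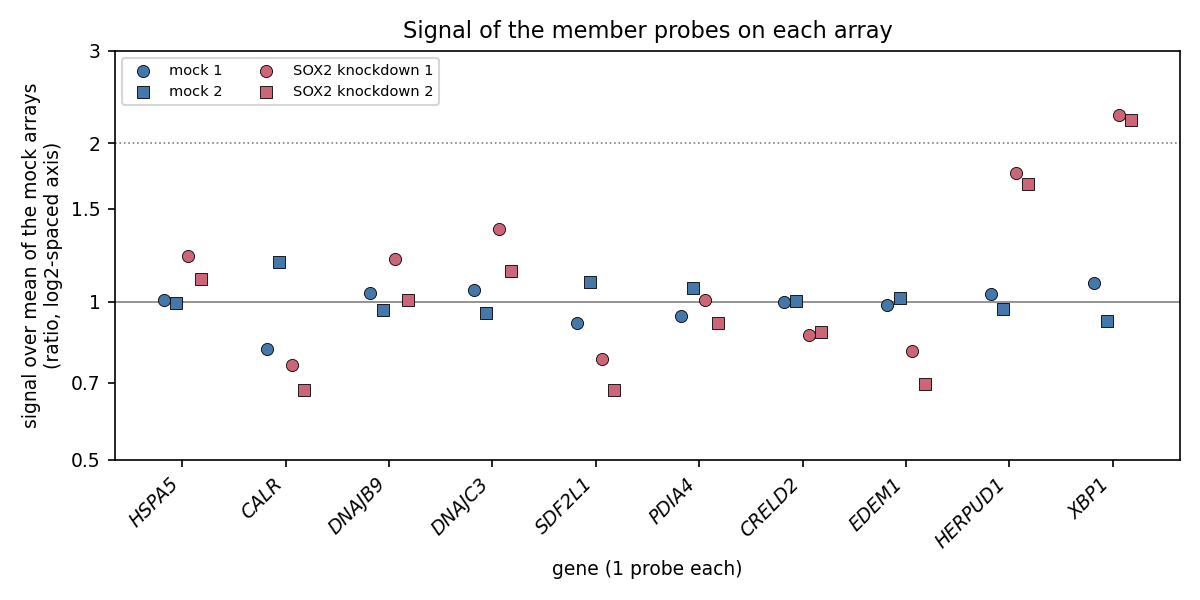
Signal of each member probe on each of the 4 arrays, as a ratio to the mean of the mock arrays (y axis, log2-spaced), with circles for replicate 1 and squares for replicate 2; the dotted line marks 2-fold. Both *SOX2* knockdown arrays lie above 2-fold for *XBP1* and between 1.5-fold and 2-fold for *HERPUD1*, while the other genes lie on both sides of the mock mean.

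*HSPA5* encodes BiP, the main Hsp70 of the ER, which also holds the 3 sensors inactive. Its signal was 22.5 and 22.3 in mock knockdown and 27.3 and 24.7 after *SOX2* knockdown. Both knockdown arrays were above both mock arrays, by a 1.16-fold difference of the means. The log2 change of 0.21 (SE 0.13) had a 95% interval of -0.14 to 0.57, which holds no change and ends at 1.48-fold higher (limma, adjusted p = 0.513). *CALR* encodes calreticulin, a calcium-binding lectin chaperone of glycoproteins. Its signal was 3.11 and 4.56 in mock knockdown and 2.91 and 2.60 after knockdown. The groups did not overlap, with knockdown lower, but the mock arrays differed more from each other (0.55 on the log2 scale) than for any other member kept. The log2 change was -0.45 (SE 0.23; limma, adjusted p = 0.420). It was -0.73 without mock replicate 1 and -0.18 without mock replicate 2.

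The DnaJ proteins and their partners hand clients to BiP. *DNAJB9* (ERdj4) is a J-domain cochaperone and among the targets most dependent on XBP1. It read 2.59 and 2.40 in mock knockdown and 3.0 and 2.51 after knockdown. The groups overlapped, and the log2 change of 0.14 had a 95% interval of -0.27 to 0.55 (limma, adjusted p = 0.765). Leaving out the *SOX2* knockdown arrays in turn gave 0.011 (replicate 1) and 0.27 (replicate 2). *DNAJC3* (p58IPK) is a cochaperone known to restrain PERK. Its brighter probe read 0.748 and 0.676 in mock knockdown and 0.977 and 0.812 after knockdown, a log2 change of 0.33 (SE 0.16; limma, adjusted p = 0.407) with groups that did not overlap. It was 0.19 without *SOX2* knockdown replicate 1. The other *DNAJC3* probe was near background, with S/N of 4.09, 1.90, -0.23 and 7.52, and did not pass the filter. *SDF2L1* is a partner of the DnaJ-BiP complex. It read 1.81 and 2.16 in mock knockdown and 1.55 and 1.35 after knockdown. Both knockdown arrays were below both mock arrays, by a log2 change of -0.45 (SE 0.16, 95% interval -0.89 to -0.01; limma, unadjusted p = 0.0454, adjusted p = 0.282). The unadjusted p was over 0.05 in the limma fit when mock replicate 2 (0.167) or either *SOX2* knockdown replicate (0.104 and 0.236) was left out.

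*PDIA4* (ERp72) is a protein disulfide isomerase, and *CRELD2* is a secreted ER-resident protein with disulfide isomerase activity. *PDIA4* read 2.25 and 2.54 in mock knockdown and 2.42 and 2.18 after knockdown, with overlapping groups and a log2 change of -0.06 (95% interval -0.45 to 0.33; limma, adjusted p = 0.912). *CRELD2* had the closest mock replicates of all members, at 9.24 and 9.27, against 7.98 and 8.10 after knockdown. The difference of -0.20 on the log2 scale (SE 0.12; limma, adjusted p = 0.504) was small but lay outside the spread within both groups.

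*EDEM1* and *HERPUD1* serve degradation. *EDEM1* encodes a lectin-like protein that passes trimmed glycoproteins to degradation. It read 4.48 and 4.60 in mock knockdown and 3.65 and 3.17 after knockdown, a log2 change of -0.42 (SE 0.14, 95% interval -0.79 to -0.04; limma, unadjusted p = 0.0368, adjusted p = 0.258). Leaving out any of the 4 arrays took the unadjusted p over 0.05, to between 0.0888 and 0.25 in the limma fit. *HERPUD1* encodes a membrane protein with a ubiquitin-like domain that helps to assemble the degradation complex. It read 2.05 and 1.93 in mock knockdown and 3.50 and 3.33 after knockdown. The gap between the groups was far wider than the gap within either. The log2 change of 0.78 (SE 0.13, 95% interval 0.43 to 1.12) had an unadjusted p of 0.00269 and an adjusted p of 0.116 in limma, and 3.04% of all probes kept had a change at least as high.

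*XBP1*, the transcription factor of the group and itself a known target of ATF6, read 6.66 and 5.64 in mock knockdown and 13.9 and 13.6 after knockdown. The knockdown arrays lay close together and both were above 2 times the higher mock array's level. The log2 change was 1.17 (SE 0.15, 95% interval 0.77 to 1.56), with an unadjusted p of 0.000882 and an adjusted p of 0.0962 in limma. *XBP1* was the only member with an adjusted p under 0.1, a limit that 1.13% of all probes passed, and 1.12% of all probes had a change at least as high. Splicing of *XBP1* was not measured here, since the array gives 1 signal for the gene. The spot carried a flag of unstated meaning on mock replicate 2, and without that array the log2 change was 1.05.

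**Figure D3:**
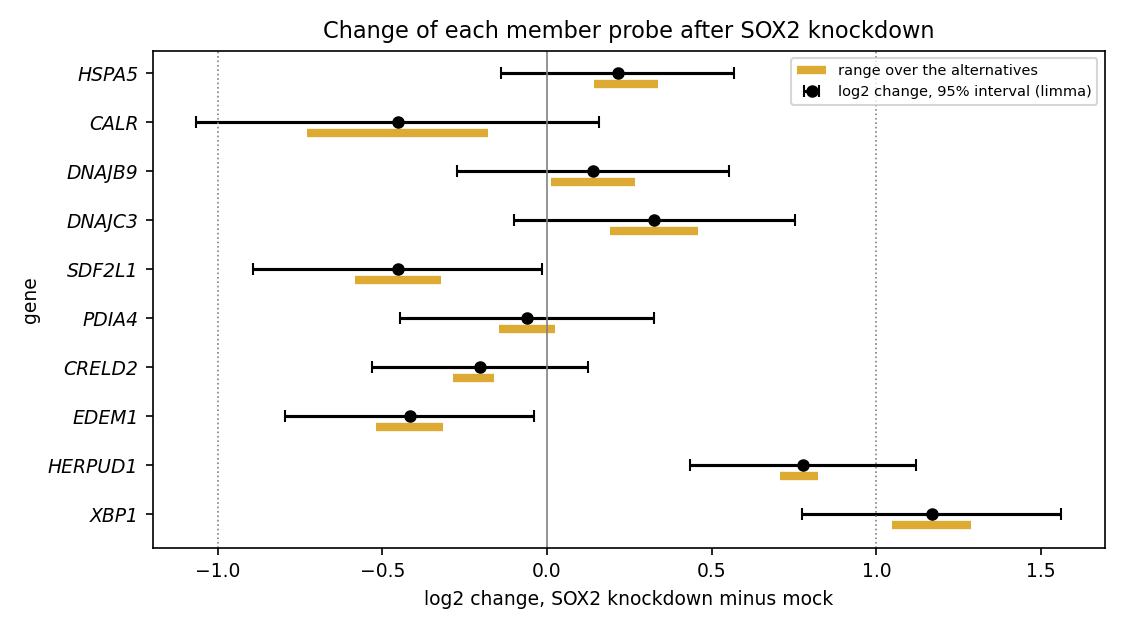
Log2 change of each member probe, *SOX2* knockdown minus mock (points), with the 95% interval of the limma fit (bars) and the range of the value over the alternatives and with each array left out (yellow); dotted lines mark 2-fold. The intervals of *XBP1* and *HERPUD1* lie wholly above 0, those of *SDF2L1* and *EDEM1* wholly below it, and the other 6 include it.

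*XBP1* and *HERPUD1* are set apart here after their values were seen, so what follows describes the other 8 members. For 7 of the 8 (all but *CALR*) the 95% interval lay within 2-fold in both directions. The share of all probes with such an interval was not counted, so whether this is particular to the members is not known.

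Of the 4 genes with the spaced ER stress element, *XBP1* had a log2 change of 1.17, and *HSPA5* (0.21), *CALR* (-0.45) and *CRELD2* (-0.20) had 95% intervals that include 0. Of the genes with ER stress element II, *HERPUD1* changed by 0.78 and *SDF2L1* by -0.45. No relation between the elements and the changes was tested. *HERPUD1*, which holds the C/EBP-ATF core, and *XBP1*, which does not, were the 2 members past 1.5-fold (5.32% of all probes were past it in that direction, and 5.19% in the other).

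The other genes of the ER response were taken from a list of 60 chaperone, folding, degradation and transport genes, with 72 of 77 probes kept. Their median log2 change was -0.11. At an unadjusted p under 0.05 in limma, 2 probes were higher (*HSPA13* and 1 of *FKBP14*; 7.9% of all probes) and 9 were lower (9.16% of all probes), and none passed an adjusted p of 0.05. The groups did not overlap with knockdown lower in 28 of the 72 (25.8% of all probes) and with knockdown higher in 4 (21.2% of all probes). None was past 2-fold, as were 1.57% of all probes higher and 1.04% lower. The median was -0.13 over chaperones and folding enzymes, -0.02 over degradation genes and -0.11 over translocation and traffic.

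Among the main targets of this list, the lectin chaperone *CANX* read 31.4 and 31.5 in mock knockdown and 30.1 and 29.3 after knockdown. *HSP90B1* (GRP94), the Hsp90 of the ER, had a log2 change of -0.20 on a probe with overlapping groups and of -0.29 on another, which read 34.2 and 30.3 against 25.5 and 27.2. Neither had an unadjusted p under 0.05. The disulfide isomerase *PDIA3* (ERp57) had log2 changes of -0.44 and -0.39 on its 2 probes, the second of which is filed under another gene identifier, with limma unadjusted p of 0.0379 and 0.0302. The isomerase *P4HB* read 31.5 and 36.1 against 29.4 and 23.8. The Hsp110-like *HYOU1* (-0.22), the cochaperone *DNAJB11* (-0.01), the secreted *MANF* (-0.12) and the degradation genes *SEL1L* (0.02) and *SYVN1* (-0.04) had unadjusted p over 0.05. Among probes whose groups did not overlap, the largest changes were in *FKBP14*, a prolyl isomerase whose 2 probes disagreed (-0.68 and 0.43). Next in the lower direction were the degradation lectin *OS9* (-0.65 on a probe) and the translocation gene *SEC62* (-0.60 on a dim probe and -0.09 on a bright one). Next in the higher direction were *HSPA13* (0.35) and *CALU* (0.30 on a probe). *OS9* and *CALU* each have another probe that was not among these. That of *OS9* was not among the probes with an unadjusted p under 0.05 in limma.

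The sensors and their partners gave 14 of 19 probes kept, with a median log2 change of 0.05. *ERN1*, the kinase and nuclease that splices *XBP1*, has 2 probes. The first read 0.274 and 0.205 in mock knockdown and 0.294 and 0.284 after knockdown, a log2 change of 0.28 (95% interval -0.22 to 0.79; limma, unadjusted p = 0.196, adjusted p = 0.545). The second read 0.173 and 0.134 against 0.255 and 0.210, a log2 change of 0.60 (95% interval 0.07 to 1.14; limma, unadjusted p = 0.0341, adjusted p = 0.249). *ATF6* read 1.40 and 1.64 against 1.89 and 1.72, a change of 0.25 (limma, adjusted p = 0.508). *EIF2AK3* read 0.853 and 0.875 against 0.755 and 0.75, a change of -0.20 (limma, adjusted p = 0.517). The groups did not overlap in any of these 4 probes, with knockdown higher in 3 (21.2% of all probes) and lower in 1 (25.8% of all probes). The ATF6-like *CREB3L4* (-0.29) and a probe of the protease *MBTPS2* (-0.15), which cuts ATF6, were lower without passing an unadjusted p of 0.05. That probe is 1 of 3 for *MBTPS2*, and it is named because its groups did not overlap. The only probe of this list past 2-fold (1.57% of all probes higher and 1.04% lower) was 1 of *CREB3L3*, which is named after its values were seen. It was at background in mock knockdown (S/N of 0.97 and -0.50), and the other *CREB3L3* probe, above background on all 4 arrays, changed by 0.16.

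The amino acid response list had 52 genes, with 60 of 64 probes kept and a median log2 change of 0.64. At an unadjusted p under 0.05 in limma, 35 probes were higher (7.9% of all probes) and 1 lower (9.16% of all probes), the latter of *GPT2*, an alanine transaminase with S/N over 3 on 2 of the 4 arrays. An adjusted p under 0.1 was found for 12 (1.13% of all probes) and under 0.05 for none. The groups did not overlap with knockdown higher in 46 of the 60 (21.2% of all probes), and 17 were past 2-fold higher (1.57% of all probes). This list was chosen with earlier results of these data known. The study had already called some of its genes past 2-fold, among them *SLC3A2* and *CTH*. The counts are therefore a description and not an independent test. *DDIT3* (CHOP), a factor downstream of ATF4 that both responses share, read 3.26 and 4.27 in mock knockdown and 11.9 and 11.6 after knockdown. *CHAC1*, a glutathione-degrading enzyme, had a log2 change of 2.06 (SE 0.13), and *SESN2*, a sensor of leucine that is a target of ATF4, of 2.12 (SE 0.23). *TRIB3*, a pseudokinase induced by ATF4 and CHOP, changed by 1.95 on a probe and by 0.06 on another. *ASNS*, asparagine synthetase, changed by 1.08, 0.08 and 1.33 on its 3 probes. *ATF4* itself changed by 0.14 and 0.42. *LARS1*, a leucyl-tRNA synthetase, changed by -0.20. The values of these genes and of the 10 ER genes stand side by side, and the difference between the lists was not tested.

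**Figure D4:**
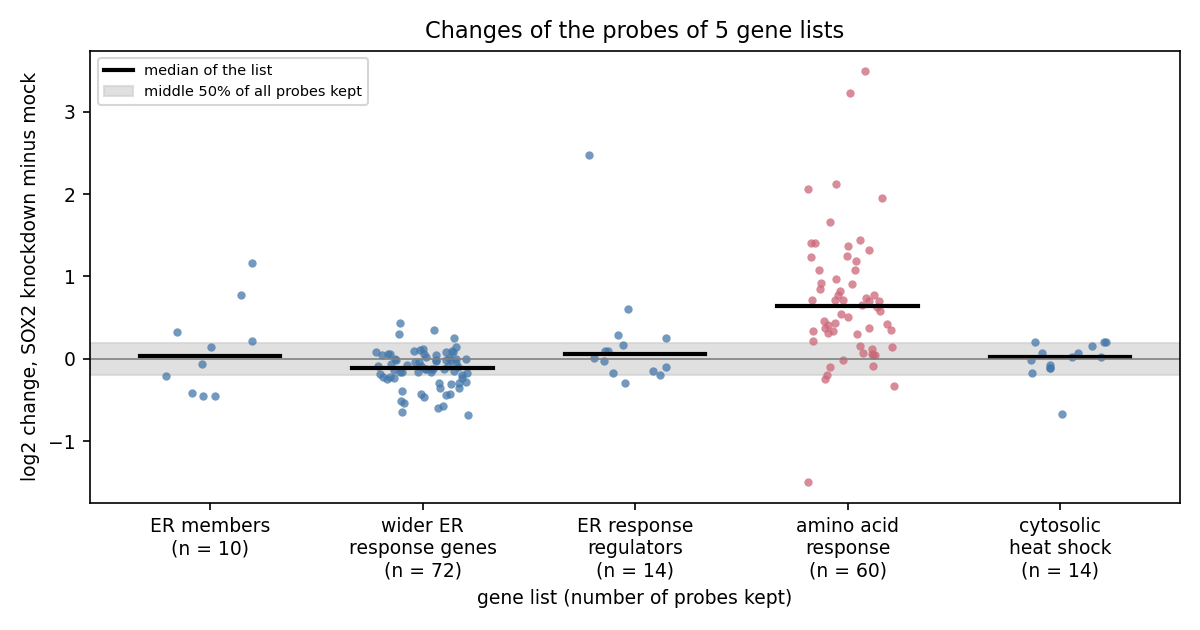
Log2 change of each probe kept, *SOX2* knockdown minus mock (y axis), in 5 gene lists (x axis, with the number of probes), with the median of each list (black line) and the middle 50% of all probes kept (grey band). The medians are 0.04 for the 10 ER members, -0.11 for the wider ER response, 0.05 for its regulators, 0.64 for the amino acid response and 0.03 for cytosolic heat shock genes.

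Cytosolic chaperones, which answer unfolded proteins outside the ER, gave 14 of 14 probes kept and a median log2 change of 0.03. None was past 2-fold (1.57% of all probes higher and 1.04% lower). An unadjusted p under 0.05 was found for 1 probe, lower (9.16% of all probes), and for 0 higher (7.9% of all probes). That probe was of the small heat shock protein *CRYAB* (-0.66, limma unadjusted p = 0.00579 and adjusted p = 0.138). *HSPA4* and *HSPH1* changed by 0.21 each and *BAG3* by -0.11. *HSPA1A* had probes at 0.16 and -0.17, the first of which is also annotated to another gene.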

How the data were processed

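Biotin-labelled RNA of 4 samples was run on the Human Genome Survey platform of Applied Biosystems, whose arrays have 1 colour and are read by chemiluminescence. The deposited scanner files give a linear intensity per feature, already normalized by the scanner software to a similar median on each array, and, per the file headers, an S/N score and flags. What the flags mean, and which software version set them, is not given in the sources used here. A further deposited table holds a linear ratio per probe and array, processed by the authors, and served as an alternative.

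Control features and 210 probes that had a flag reaching 5000 on some array were left out. Signals were divided by the 75th percentile of the array, floored at 0.01 and taken to log2. A probe entered the fit if 1 group or both had an S/N above 3 on each of its arrays, which held for 21256 probes and not for 11630. Each probe was fitted with lmFit and eBayes of limma 3.58.1 (R 4.3.3; two-sided, no block), with Benjamini-Hochberg adjustment over all probes kept, after a test of the scripts on simulated data. P-values measure the spread between these samples only, and 2 arrays a group limit the precision. Fold changes of means are ratios of linear replicate means.

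The members and lists were chosen with earlier results of these data known. Named genes were *SOX2*, every member probe, 9 further ER targets, 3 sensors, 6 amino acid response genes and, per list, up to 3 probes per direction with the largest change, S/N over 3 on all arrays and groups that did not overlap. Old array symbols were matched to 155 of 155 other list entries through RefSeq symbols, synonyms and accessions. Promoter sequences and coordinates are RefSeq's (GRCh38.p14), and protein sequences were not analysed here. Replicates of the same number in the mock and *SOX2* knockdown groups deviated in opposite directions (r = -0.48 across probes), so replicate numbers were not used as pairs. Mock replicate 1 was closer to *SOX2* knockdown replicate 2 (median absolute log2 difference 0.207) than to mock replicate 2 (0.223). The reason was not tested. With no block, any deviation shared by arrays of opposite number is part of the spread within groups.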

Additional observations from a re-analysis of the deposited data

How the results depend on the processing

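*XBP1* kept its direction under all 19 alternatives, at 1.13 to 1.27 in log2 (1.05 to 1.29 with an array left out), as did *HERPUD1* at 0.71 to 0.81 (0.73 to 0.82). Their adjusted p ranged from 0.00452 to 0.497 and from 0.0443 to 0.596. Over all alternatives and kept member probes, 183 of 190 values kept their direction and side of the threshold. For every member kept, changing only the S/N filter, the floor, the variance fit or the block left the log2 change as it was. The direction could not differ in those alternatives, so they do not bear on it. *PDIA4* ranged from -0.15 to 0.025 with an array left out. It reversed to 0.013 without *SOX2* knockdown replicate 2 and to 0.025 without mock replicate 2. The count of members with an adjusted p under 0.05 was 0, but 1 (*XBP1*) under array median scaling, without further scaling and with the authors' table, and 2 with a variance trend, which adds *HERPUD1*. Under these 4 settings 826, 776, 758 and 287 probes of the whole table passed, and 5 when all arrays had to exceed an S/N of 3, against 0. In the first 3, the limma fit gave every probe tested the same SE (0.288, 0.291 and 0.288), so these calls take no account of a probe's own spread, and *SOX2* passed the threshold at -1.73, -1.72 and -1.72. The 4 members with an unadjusted p under 0.05 became 2 under these 3 settings and without an S/N filter, *SDF2L1* and *EDEM1* being lost. The share of all probes tested that passed this limit in limma fell as well, from 17.1% to between 11.6% and 12.0%. With an array left out the count was 2 to 4; it was 4 only without mock replicate 1, where *CALR* took the place of *EDEM1*, and the other 3 lost *SDF2L1* and *EDEM1*. The median of the amino acid response was 0.50 under normexp with an offset of 50, and 0.51 to 0.71 with an array left out. The log2 change of the *SOX2* probe was -1.17 under normexp and -1.99 to -1.40 with an array left out. A cutoff of 1.5-fold gave 2 members in place of 1. The causes of the other shifts were not tested. Loose spelling of the spaced element gave 10 genes (boxes anywhere in the window) or 7 (at most 1 mismatch, added after the data were seen), against 4.

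With the replicate number as a block, 2 members (*XBP1* and *HERPUD1*) had an unadjusted p under 0.05 and 0 an adjusted p under 0.05, against 4 and 0. A crossed pairing of the numbers, chosen after seeing the data, gave 5 and 0. The share of all probes with an unadjusted p under 0.05 in limma moved too. It was 8.96% with the block, 17.1% without one and 26.0% with the crossed pairing.

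The 2 arrays a group limit the precision of every value, and dim probes such as the second of *DNAJC3* give no usable comparison.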
